A study of Saccharomyces cerevisiae with 12 samples.

Results

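The 4 RNA-seq libraries that carry replicate number 3 in a yeast series of 12 libraries are described here against the 8 libraries numbered 1 and 2. Membership was taken from the number in each column name of the deposited count table, with 1 library numbered 3 in each of the 4 groups formed by strain and treatment. The set was singled out because earlier values of these same data showed it to stand apart, so the number 3 difference is given as a description with no p-value. The labels number the replicates and speak of triplicates, but do not say whether a number stands for a culture, a day, an RNA preparation or a sequencing run. Where p-values are given below, they measure only the spread between these libraries, which may be technical.

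The series asked how cells lacking the calcium-responsive transcription factor Crz1 differ from cells that also lack calcineurin, before and after potassium chloride. All 12 libraries come from haploid MATa Saccharomyces cerevisiae in the BY4741 background, with the genotype his3delta1 ura3delta0 leu2delta0 lys2delta0 crz1delta::LEU2 and an insertion on chromosome VI that holds HYG and TEFp-GFP(Y66F). The crz1 strain carries only these changes, and the crz1cnb1 strain carries cnb1delta::KanMx in addition, and so lacks the subunit Cnb1 that calcineurin needs to work. Samples of each strain were taken untreated (0 h) and after 48 h in 400 mM KCl, in synthetic medium with ammonium chloride, and the cultures were diluted every 12 h. The 4 groups are therefore crz1 at 0 h, crz1 in KCl, crz1cnb1 at 0 h and crz1cnb1 in KCl, with 3 libraries each. No untreated 48 h group was analysed here, so KCl and time in culture cannot be told apart. No group carries CRZ1, so every value below is from cells without that factor.

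Budding yeast divides its transcriptome between programmes that follow growth and programmes that follow nutrients and stress. Ribosome biogenesis genes follow growth signals, while the factors Msn2 and Msn4 switch on general stress genes and the enzymes that store trehalose and glycogen. Genes of phospholipid synthesis are driven by the factors Ino2 and Ino4 and are held back by the repressor Opi1 when inositol is plentiful, and wall genes follow cell wall integrity signalling and the cell cycle.

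The sequences that follow show the promoter letters known for 3 of these programmes, in genes whose values are described below. Each is the stretch from 250 to 101 bases before the coding start (150 bases) on the gene's own strand, read from the R64 genome, which is the build that the submitters' processing notes name. In INO1 and OPI3 the capitals mark the Ino2/Ino4 core CATGTG on either strand. In DDR2 they mark the stress response element AGGGG bound by Msn2 and Msn4, and in NSR1 the PAC motif GATGAG of ribosome biogenesis genes.
INO1 (chrX:136034-136183, minus strand): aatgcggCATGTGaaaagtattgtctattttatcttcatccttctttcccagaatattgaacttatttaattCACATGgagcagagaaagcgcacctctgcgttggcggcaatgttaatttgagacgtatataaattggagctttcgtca
OPI3 (chrX:573036-573185, minus strand): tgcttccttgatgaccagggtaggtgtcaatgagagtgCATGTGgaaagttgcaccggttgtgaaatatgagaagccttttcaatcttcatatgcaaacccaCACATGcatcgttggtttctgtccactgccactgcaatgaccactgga
DDR2 (chrXV:231856-232005, minus strand): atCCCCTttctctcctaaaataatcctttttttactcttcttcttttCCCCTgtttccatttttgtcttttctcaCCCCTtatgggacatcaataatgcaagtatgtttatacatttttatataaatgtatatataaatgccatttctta
NSR1 (chrVII:807757-807906, minus strand): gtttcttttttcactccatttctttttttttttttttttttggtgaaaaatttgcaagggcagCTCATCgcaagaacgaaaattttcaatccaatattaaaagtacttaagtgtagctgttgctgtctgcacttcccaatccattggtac

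Library totals lay between 21305485 and 21599279 counts and did not separate the numbers. The libraries numbered 3 were more top-heavy: their 10 most abundant features held 15% to 16.6% of counts, against 10.7% to 12.4% in the 8 others, and their TMM scaling factors were 0.791 to 0.955 against 0.978 to 1.166. The median count of a tested feature was 660 to 854 in the number 3 libraries and 887 to 1119 in the others. In the crz1cnb1 strain CNB1 had 14 to 32 counts in the number 3 libraries and 19 to 68 in the others, against 1346 or more in every crz1 library, and CRZ1 had 3 to 19 counts in all 12. No library therefore went against its strain label. Sums of marker genes for MATa cells were 2957 to 4536 CPM (counts scaled to library size) in number 3 and 2118 to 3557 CPM in the others, with 3 of 7 markers called higher. Sums for MATalpha markers were 34.3 to 53 against 22.1 to 34.2 CPM (2 of 4 called higher), for meiotic markers 35.5 to 43.6 against 30.8 to 38.4 CPM (1 of 7 called lower), and for quiescent-cell markers 140 to 194 against 115 to 162 CPM (1 of 6 called higher). Called means past an adjusted p threshold of 0.05 in edgeR. Over all tested features 22% were called higher and 23.3% lower, and nothing about cell type is read from these few markers. No marker was at 0 in all libraries, and the part of cell mixture or of the abundant transcripts in the differences below was not tested. In bulk RNA a change in the number of cells of a kind and a change in RNA per cell cannot be told apart.

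Number 3 against 1 and 2 was the largest of the 11 contrasts into which the series' variation can be split. Among 5084 features with a mean of at least 10 CPM, the contrast of number 3 against 1 and 2 held 34.2% of the variance of log2 CPM over the 12 libraries, KCl against 0 h held 24.8%, number 1 against 2 held 15.9% and strain held 4.43%. Each of these contrasts has 1 degree of freedom of 11. Number 3 was the largest of the 11 components in 2715 features (53.4%), KCl in 971 (19.1%) and strain in 42 (0.826%). The number 3 by KCl component held 7.22% and the number 3 by strain component 1.01%. The like components of number 1 against 2 held 6.11% (by KCl) and 1.84% (by strain), so a number by KCl component was not particular to number 3.

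**Figure D1:**
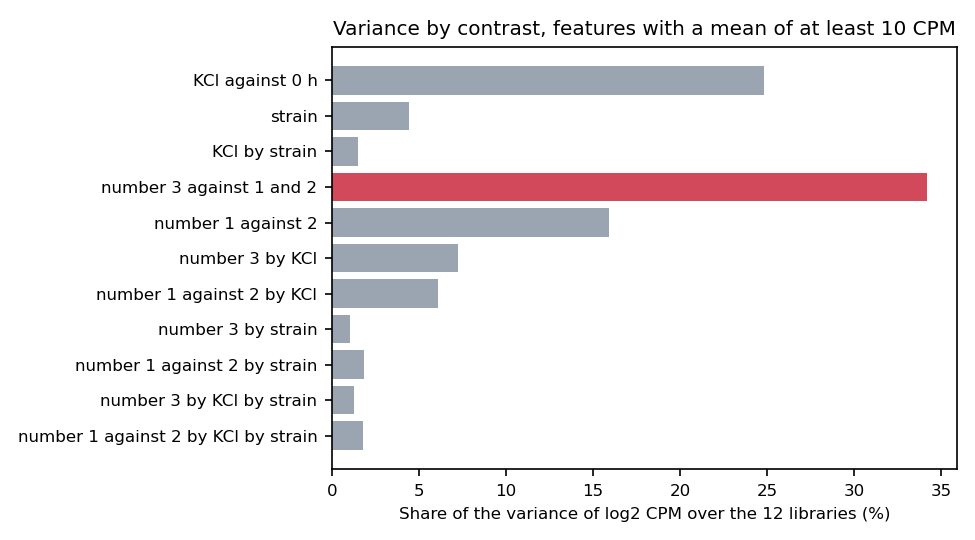
Share of the variance of log2 CPM over the 12 libraries, in percent, held by each of the 11 contrasts, over 5084 features. The red bar is number 3 against 1 and 2 (34.2%), longer than that of KCl (24.8%) and strain (4.43%).

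Of 6309 features tested, 1390 (22%) were higher and 1471 (23.3%) lower in number 3 past an adjusted p threshold of 0.05 in edgeR, 45.3% in all. Since the contrast was chosen from these data, "called" below only means past that threshold, and nothing is read from the shares. All 4 number 3 libraries lay above all 8 others in 671 features (10.6%) and below all 8 in 651 (10.3%). Within its own group the number 3 library lay above both others in all 4 groups for 1245 features (19.7%) and below both for 1266 (20.1%). Few differences were large: 71 features (1.13%) were at least 2-fold higher and 17 (0.269%) at least 2-fold lower. Of these, 65 features (1.03%) were called and at least 2-fold higher, and 14 (0.222%) were called and at least 2-fold lower. These counts depend on the scaling. With library totals in place of TMM factors the median of all features moved from -0.03 to -0.32 on the log2 scale, and 383 features were called higher and 2931 lower (11.6% of calls higher, against 48.6%). Directions below are therefore relative to the median feature.

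INO1 (YJL153C), which makes inositol phosphate from glucose 6-phosphate and opens inositol synthesis, had the highest difference of the genes named by rule. Its levels in the number 3 libraries were 157 CPM (crz1 at 0 h), 254 (crz1 in KCl), 131 (crz1cnb1 at 0 h) and 416 (crz1cnb1 in KCl). The 8 others ran from 23.8 to 166 CPM, with a median of 61. Number 3 was the highest library in each of the 4 groups, although its 0 h levels lay within the range of the KCl libraries of the others. The fitted difference was 1.84 ± 0.21 (log2, SE). OPI3 (YJR073C), which methylates phosphatidylethanolamine to phosphatidylcholine, had 1876, 1724, 2152 and 2138 CPM in the same order. Its 8 others ran from 508 to 895 CPM, with a median of 706, so the sets were separate, and the difference was 1.55 ± 0.12.

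Of the 19 genes listed for inositol and phospholipid synthesis, 13 were called higher and 1 lower, with a median of 0.55 on the log2 scale against -0.03 over all features. All 4 number 3 libraries lay above all 8 others for 9 of the 19 and below them for 0. Over all features 22% were called higher and 23.3% lower, and 10.6% lay above all 8 others. The mitochondrial phosphatidylserine decarboxylase gene PSD1 differed by 0.84, and the fatty acid synthase genes FAS2 and FAS1 by 0.81 and 0.77. CHO1, the phosphatidylserine synthase gene, had 674, 787, 757 and 767 CPM in number 3 against 366 to 639 in the 8 others (median 535), and differed by 0.56 ± 0.12. CHO2, which starts the methylation that OPI3 completes, differed by the same amount, 0.56 ± 0.17. The regulators did not follow the enzymes: the repressor gene OPI1 was the 1 called lower (-0.46 ± 0.16), and the activator genes INO2 and INO4 had -0.34 and -0.21, neither called. CATGTG, the motif printed for INO1 and OPI3, was present in 11 of the 19 promoters (57.9%) and in 6.84% of 5716 promoters of the same 300 bases, from 250 before to 50 after the coding start. This motif was added after the values were seen, its letters can overlap those of other motifs searched, such as TGTGGC of Met31 and Met32, and a match is only a description.

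Genes of the cell wall formed the list with the highest median difference. Of 30 genes, 26 were called higher and 2 lower, with a median of 0.58, and 12 were higher in all 4 number 3 libraries than in all 8 others. The shares over all features were 22% called higher, 23.3% lower and 10.6% above all 8 others. CIS3 (YJL158C), a mannoprotein of the wall, had 1582, 1229, 1875 and 1443 CPM in number 3. The 8 others ran from 460 to 725 CPM (median 512), and the difference was 1.49 ± 0.13 with no overlap. SED1, an abundant wall glycoprotein with a lipid anchor, had 2829, 3250, 3789 and 4925 CPM against 1131 to 2067 (median 1535), a difference of 1.21 ± 0.11. CCW12, another abundant wall mannoprotein, had 12689 to 14786 CPM in number 3 libraries and 5519 to 8842 in the others. The glucan synthase gene FKS1 differed by 0.50 and the chitin synthase gene CHS3 by 0.33. The 2 called lower act in the integrity pathway and not in the wall itself: the transcription factor gene RLM1 (-0.72) and the MAP kinase gene SLT2 (-0.32). Among the genes named by rule, PRY3 (YJL078C) codes for a wall protein of the CAP family and PRY1 (YJL079C) for its secreted, sterol-binding relative. PRY3 had 234, 288, 301 and 303 CPM against 87.4 to 136 (median 111), a difference of 1.30 ± 0.08. PRY1 differed by 1.34 ± 0.18 and overlapped the others.

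Glycolysis was higher in number 3 in all 4 groups. Of 19 genes 18 were called higher and 0 lower, with a median of 0.57, against 22% and 23.3% of all features. The median within a group was 0.72 (crz1 at 0 h), 0.46 (crz1 in KCl), 0.55 (crz1cnb1 at 0 h) and 0.52 (crz1cnb1 in KCl). TDH3, the main glyceraldehyde 3-phosphate dehydrogenase gene, had 39744, 38524, 50306 and 44203 CPM in number 3. The 8 others ran from 19608 to 29088 CPM (median 22571), and the difference was 0.91 ± 0.09 without overlap. TDH3 alone held 3.4% to 4.06% of counts in number 3 libraries and 2.09% to 2.84% in the others. ENO2, an enolase gene, had 28367, 24658, 33640 and 24805 CPM against 10741 to 15307 (median 13459), a difference of 1.04 ± 0.08. The TDH genes and the 2 enolase genes are near-identical copies, and how reads with several matches were counted is not given in the sources used here, so the split within each family is uncertain. RPE1 (YJL121C), an epimerase of the neighbouring pentose phosphate pathway, had 294, 286, 322 and 282 CPM against 97 to 140 (median 111) and differed by 1.37 ± 0.10. PDC6, a minor pyruvate decarboxylase gene, was the only listed gene with a value below 0 (-0.24, not called).

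Among enzymes of amino acid synthesis single genes stood out rather than the pathway. THR1 (YHR025W), the homoserine kinase gene of threonine synthesis, had 483, 442, 592 and 472 CPM in number 3. The 8 others ran from 132 to 199 CPM (median 149), and the difference was 1.66 ± 0.13. ILV6 (YCL009C), the regulatory subunit of acetolactate synthase, had 293, 305, 311 and 283 CPM against 74.6 to 118 (median 99.7), a difference of 1.59 ± 0.13. CYS3 (YAL012W), which makes cysteine from cystathionine, had 935, 637, 1077 and 715 CPM against 221 to 393 (median 272), a difference of 1.49 ± 0.18. None of the 3 overlapped the others. The list of 52 amino acid genes under Gcn4 that holds THR1 and ILV6 had 14 called higher and 7 lower, with a median of 0.14. These shares were 26.9% and 13.5%, against 22% and 23.3% of all features. THR4, which follows THR1 in the pathway, had 0.40 and ILV2, the catalytic partner of ILV6, had 0.17, neither called.

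The other genes named among the 12 highest were TOS6, TPO2 and SDS24. TOS6 (YNL300W), a protein with a lipid anchor, had 66.5, 91.7, 104 and 96.7 CPM against 18.9 to 46.5 (median 26.3), a difference of 1.59 ± 0.21 without overlap. TPO2 (YGR138C), a polyamine exporter, had 192, 52.8, 223 and 131 CPM against 25.4 to 75.4 (median 42.1). Its number 3 library of crz1 in KCl lay within the range of the others, and the difference was 1.58 ± 0.21. SDS24 (YBR214W) had 23.9, 49.6, 28.4 and 49.8 CPM against 10.1 to 19.3 (median 12.5), a difference of 1.44 ± 0.18. Just outside the 12, the glycogen phosphorylase gene GPH1 had a difference of 1.26, against 1.30 for the last gene inside.

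**Figure D2:**
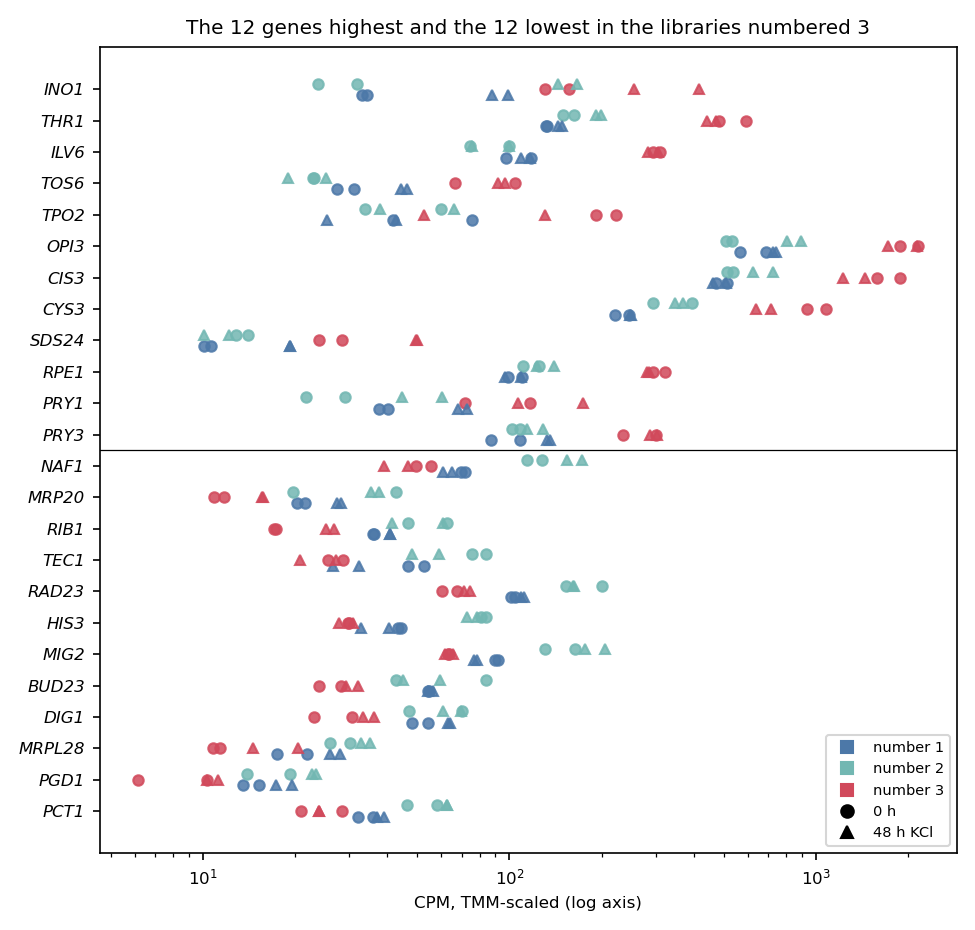
TMM-scaled CPM on a log axis of the 12 genes highest and the 12 lowest in the libraries numbered 3, 1 point per library, coloured by number, with circles for 0 h and triangles for KCl. The number 3 points stand clear of the rest for genes such as THR1 (442 to 592 CPM against 132 to 199), while INO1, TPO2, PRY1, TEC1 and MRPL28 overlap.

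The lists with the lowest medians in number 3 were those of ribosome biogenesis, mitochondrial ribosomal proteins and the proteasome. NAF1 (YNL124W), an assembly factor of small nucleolar RNA particles, had 49.6, 38.9, 55.5 and 46.7 CPM in number 3. The 8 others ran from 60.7 to 173 CPM (median 92.8), and the difference was -1.13 ± 0.31. Much of that came from number 2: the difference was -0.50 against number 1 alone and -1.59 against number 2 alone. BUD23 (YCR047C), a methyltransferase of the small ribosomal subunit RNA, had 24.0, 29.3, 28.3 and 32.0 CPM against 42.8 to 83.6 (median 54.3), a difference of -0.98 ± 0.17 without overlap. Of 48 ribosome biogenesis genes 23 were called lower and 2 higher, with a median of -0.37, against 23.3% and 22% of all features. The median within a group was -0.38 (crz1 at 0 h), -0.50 (crz1 in KCl), -0.08 (crz1cnb1 at 0 h) and -0.55 (crz1cnb1 in KCl). Number 2 contributed in KCl, where the list deviated from its group mean by 0.36 in crz1 and 0.40 in crz1cnb1. The like values were -0.33 and -0.37 in number 3, and -0.07 and -0.10 in number 1. The helicase gene DBP8 differed by -0.70 ± 0.13 and UTP5, of the small subunit processome, by -0.69 ± 0.11. The 2 called higher were NOP1, the fibrillarin gene (0.52), and UTP10 (0.38). The PAC letters GATGAG were present in 46 of the 48 promoters (95.8%) and in 19.9% of all 5716. Cytosolic ribosomal protein genes, which share growth control with this list, had a median of 0.00, with 32 of 138 called higher and 12 lower. Their share called higher (23.2%) was near the 22% of all features, and their share called lower was 8.7% against 23.3%. Small nuclear and nucleolar RNAs, which lack poly(A) tails in their mature form, lay on the other side: 30 of 68 were called higher and 0 lower, with a median of 0.53.

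Of 68 mitochondrial ribosomal protein genes 37 were called lower and 0 higher, with a median of -0.28. MRP20 (YDR405W) had 10.9, 15.6, 11.7 and 15.7 CPM in number 3 against 19.7 to 42.6 (median 27.7), a difference of -1.11 ± 0.20. MRPL28 (YDR462W) had 11.4, 20.4, 10.8 and 14.6 CPM against 17.4 to 35.2 (median 27.1), a difference of -0.95 ± 0.15, and its number 3 library of crz1 in KCl overlapped the others. The nuclear genes of the respiratory chain and ATP synthase lay on the other side: 20 of 41 were called higher and 0 lower, with a median of 0.32. For both lists the shares over all features were 22% called higher and 23.3% lower. ATP2, the beta subunit gene of ATP synthase, differed by 0.80.

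Proteasome genes were lower in number 3 as a list. Of 36 genes 20 were called lower and 0 higher, with a median of -0.27. For 15 all 4 number 3 libraries lay below all 8 others, and the rest overlapped. Over all features 22% were called higher and 23.3% lower, and 10.3% lay below all 8 others. RPN10, a ubiquitin receptor of the proteasome, had 37.7, 55.4, 47.4 and 60.5 CPM against 67.5 to 135 (median 90.7), a difference of -0.91 ± 0.20. RPN4, the transcription factor gene of this list, differed by -0.40. RAD23 (YEL037C), which works in DNA repair and carries ubiquitinated proteins to the proteasome, had 60.4, 71.1, 67.4 and 74.2 CPM against 101 to 201 (median 133), a difference of -1.01 ± 0.20. Vacuolar protease genes differed the other way, with 6 of 10 called higher, 0 lower and a median of 0.43. Their median within a group was 0.23 and 0.20 at 0 h (crz1 and crz1cnb1) and 0.55 and 0.59 in KCl. In KCl the list deviated from its group mean by 0.11 and 0.00 in number 1, -0.53 and -0.49 in number 2, and 0.36 and 0.39 in number 3. PRC1, the carboxypeptidase Y gene, had 1270, 1712, 1375 and 1702 CPM against 675 to 1152 (median 911), a difference of 0.75 ± 0.17. It was 0.48 against number 1 alone and 1.05 against number 2 alone.

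The remaining genes among the 12 lowest were regulators and enzymes of unrelated pathways. MIG2 (YGL209W), a zinc finger repressor of glucose-repressed genes, had 63.2, 61.8, 63.7 and 65.6 CPM against 76.9 to 205 (median 111). Its difference was -0.99 ± 0.28, and was -0.40 against number 1 alone and -1.41 against number 2 alone. HIS3 had 27.8 to 30.9 CPM in number 3 and 32.7 to 83.9 in the others, but both strains carry his3delta1, so its counts come from a mutated gene. Against number 1 alone and number 2 alone its difference was -0.43 and -1.43, and the like gap was -0.59 and -1.36 for TEC1, -0.64 and -1.32 for RAD23, and -0.57 and -1.25 for PCT1. DIG1, an inhibitor of the mating factor Ste12, differed by -0.96 ± 0.12, and TEC1, a factor of filamentous growth, by -1.02 ± 0.24 with overlap. RIB1, the first enzyme of riboflavin synthesis, differed by -1.09 ± 0.19, PGD1, a Mediator subunit, by -0.94 ± 0.15, and PCT1, an enzyme of choline phospholipid synthesis, by -0.94 ± 0.20. Just outside the 12, CYC3 had -0.93, against -0.94 for the last gene inside. All 24 named genes kept their sign in all 24 alternative settings and were called in 19 to 22 of them. The rule that picked them already asked for the same direction in all 4 groups, and the settings reuse these libraries. Their sign could therefore hardly turn, and nothing is read from this.

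Lipid and metal programmes completed the lists with high medians. Over all features 22% were called higher and 23.3% lower, and for 10.6% all 4 number 3 libraries lay above all 8 others. Of 31 genes of ergosterol synthesis and oxygen control 15 were called higher and 3 lower, with a median of 0.39, and 13 lay above all 8 others. ERG10, which makes acetoacetyl-CoA at the start of the sterol pathway, had 897, 882, 896 and 881 CPM against 453 to 672 (median 533), a difference of 0.69 ± 0.09. The 3 called lower were ERG6 (-0.48), the regulator gene UPC2 (-0.34) and ERG20 (-0.24). Of 20 genes listed under the zinc factor Zap1 10 were called higher and 1 lower, with a median of 0.41. INO1 is also in that list, and FET4, a low-affinity metal transporter gene, was next with 0.59. At the low end, heat shock chaperone genes had a median of -0.17, with 1 of 26 called higher and 5 lower. Their median within a group was -0.37 and -0.33 at 0 h (crz1 and crz1cnb1), but 0.06 and 0.04 in KCl. The share called lower (19.2%) was no larger than that of all features. The Hsp90 cochaperone gene STI1 had -0.69. G2/M genes had a median of -0.18, with 2 of 21 called higher and 8 lower. The chitin synthase gene CHS2 (0.58) and the proton pump gene PMA1 (0.52) were the 2 G2/M genes called higher. Meiosis genes (median -0.06, 5 of 18 lower), histone genes (-0.03, 3 of 11 higher and 1 lower) and autophagy genes (-0.03, 8 of 31 higher and 3 lower) had medians near that of all features.

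**Figure D3:**
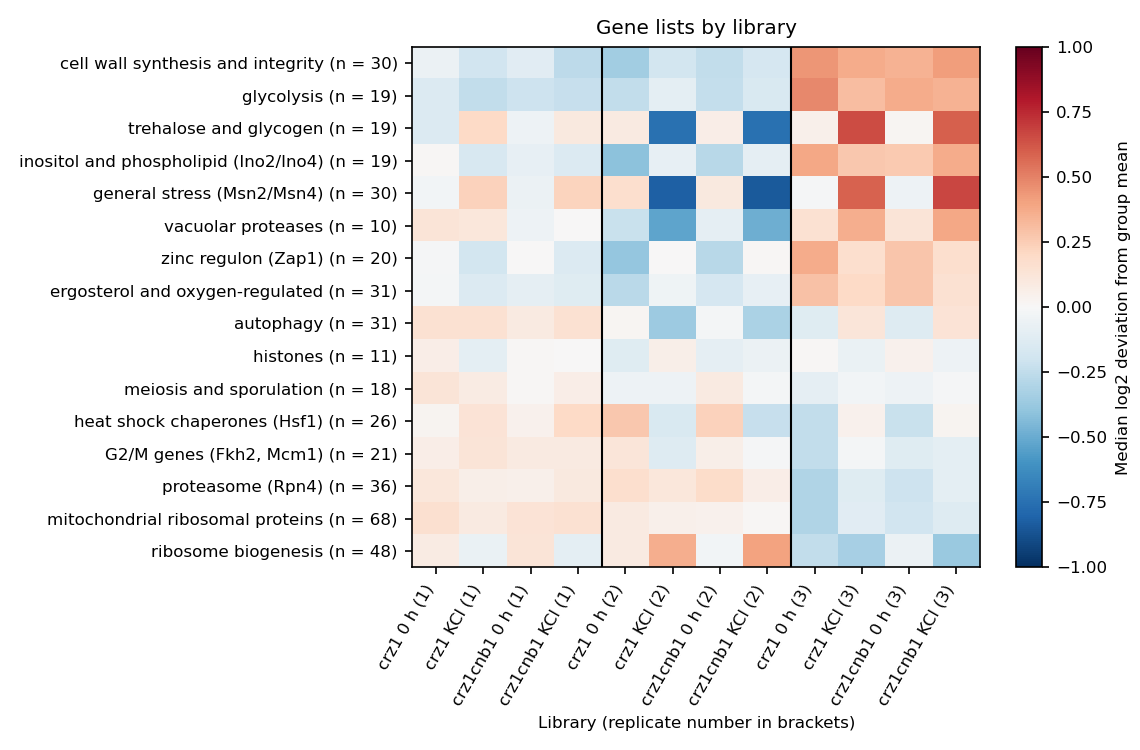
Median log2 deviation of each gene list from the mean of its group's 3 libraries, by library (columns, ordered by number), for the 8 lists with the highest and the 8 with the lowest medians. The last 4 columns are number 3: cell wall genes are at 0.35 to 0.44 in all 4, while general stress genes are at -0.05 and -0.01 at 0 h and at 0.59 and 0.67 in KCl.

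The number 3 pattern was much the same in the 2 strains. The difference of number 3 from the mean of 1 and 2, computed separately in crz1 and in crz1cnb1, had a Pearson correlation of 0.95 across the 5084 features, with the same sign in 93.3%. Computed separately at 0 h and in KCl, it had a correlation of 0.65 and the same sign in 78.8%. The 2 sides of each correlation share no library, but features are not independent of each other. In edgeR the strain difference in number 3 against the others was called for 0 of 6309 features (smallest adjusted p 0.999). DESeq2 and every other alternative run also called 0. At an unadjusted p under 0.05 edgeR had 20 features (0.317%), fewer than evenly spread p-values would give. These fits left the number by KCl differences in their error, so the 0 calls cannot show that the strains were alike.

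**Figure D4:**
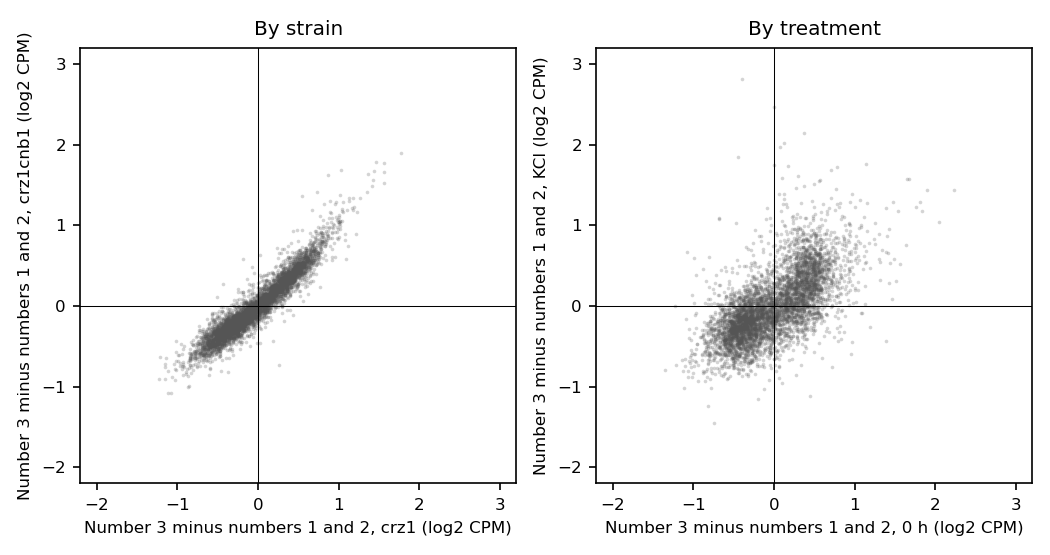
Difference of number 3 from the mean of numbers 1 and 2 in log2 CPM, 1 point per feature with a mean of at least 10 CPM, in crz1 against crz1cnb1 (left) and at 0 h against KCl (right). The left cloud is narrow (r = 0.95, 5084 features) and the right one wide (r = 0.65).

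General stress and storage genes differed in KCl and little at 0 h. At 0 h the 30 general stress genes had a median difference of -0.01 in crz1 and -0.08 in crz1cnb1, and in KCl of 0.88 and 1.01. The 19 trehalose and glycogen genes had 0.08 and 0.03 at 0 h and 0.98 and 0.90 in KCl. Both number 2 and number 3 contributed: in KCl the stress genes of crz1 deviated from their group mean by 0.23 in number 1, -0.82 in number 2 and 0.59 in number 3. Over both treatments 6 of the 30 stress genes were called higher and 0 lower (median 0.47), a share close to the 22% of all features called higher. Of the 19 storage genes 6 were called higher and 2 lower (median 0.55). TSL1, a subunit gene of trehalose synthase, had 17.3 and 22.0 CPM at 0 h and 293 and 222 in KCl in number 3, and the 8 others ran from 10.2 to 139 (median 26.1). GLK1, the glucokinase gene, had 75.8 and 95 CPM at 0 h and 678 and 639 in KCl, against 52.8 to 304 (median 84.8). For both, the number 3 libraries lay within the range of the others at 0 h and above all 8 in KCl, and neither was called over both treatments (1.01 ± 0.67 and 1.15 ± 0.50). AGGGG was present in 19 of the 30 stress promoters (63.3%) and 9 of the 19 storage promoters (47.4%), against 22% of all promoters.

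The KCl response (KCl minus 0 h) was also computed within 1 strain and 1 number. For general stress genes its median was 1.24 and 1.05 in number 1 (crz1 and crz1cnb1), -0.01 and -0.20 in number 2, and 1.54 and 1.76 in number 3. For trehalose and glycogen genes it was 0.69 and 0.44, -0.31 and -0.28, and 0.75 and 0.83. Ribosome biogenesis genes went the other way, with -0.38 and -0.38 in number 1, 0.02 and 0.27 in number 2, and -0.41 and -0.49 in number 3. In all 3 lists the medians of number 2 lay apart from those of numbers 1 and 3. The difference in the KCl response between number 3 and the others was tested as an interaction. edgeR called 0 of 6309 features without a replicate block (610, or 9.67%, at an unadjusted p under 0.05, and 5 called in DESeq2). With the replicate number as a block it called 24 higher (0.38%) and 102 lower (1.62%). Against number 1 alone 940 features were called, and against number 2 alone 1119.

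**Figure D5:**
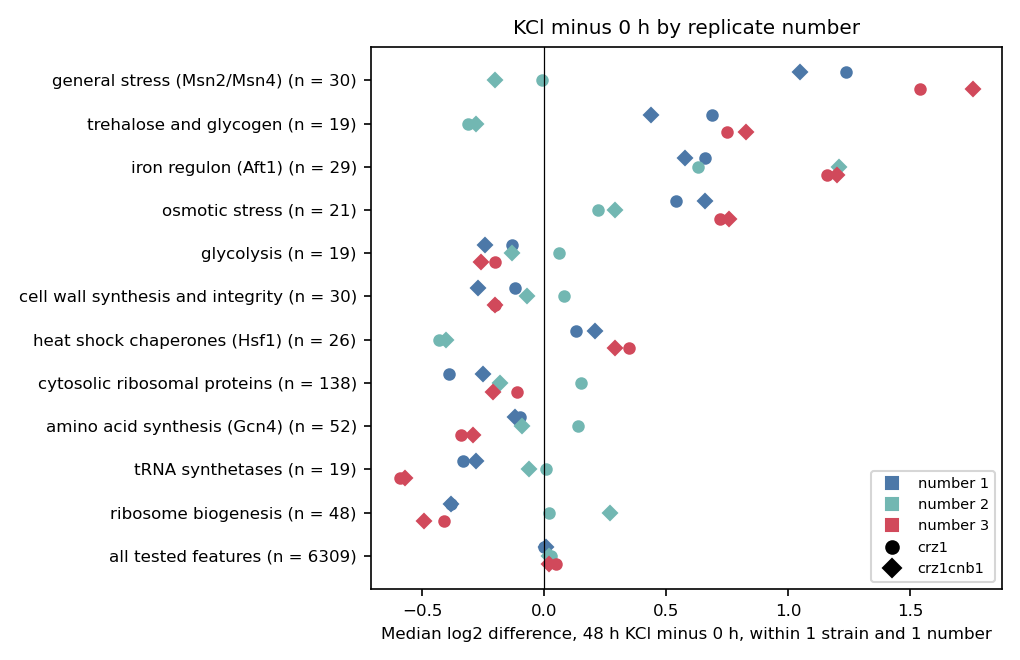
Median KCl minus 0 h difference in log2 CPM of 11 gene lists and of all tested features, within each strain (circles crz1, diamonds crz1cnb1) and number (colour). General stress genes sit at 1.05 to 1.76 in numbers 1 and 3 and at -0.20 and -0.01 in number 2.

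Genes with a higher KCl response in number 3 included a stress gene and a wall gene. DDR2 (YOL052C-A), a small stress protein and the promoter with 3 AGGGG matches printed above, had 5.08 and 4.36 CPM at 0 h and 47.8 and 52.7 in KCl in number 3. In number 1 it had 6.52 and 7.80, then 24.5 and 28.8, and in number 2 it had 4.62 and 7.21, then 7.64 and 6.78. Its KCl response was higher in number 3 by 2.24 ± 0.47 (edgeR adjusted p = 0.0387 with the block, 0.505 without). ALD4, a mitochondrial aldehyde dehydrogenase gene, had 59.9 and 72.5 CPM at 0 h and 172 and 200 in KCl in number 3, and 51.7 to 93.3 in the 8 others. Its interaction was 1.20 ± 0.23 (edgeR adjusted p = 0.0318 with the block, 0.505 without). The KCl minus 0 h difference of ALD4 was 0.83 and 0.51 in number 1, -0.16 and -0.02 in number 2, and 1.52 and 1.46 in number 3. CWP1, a wall mannoprotein gene, had 395 and 686 CPM at 0 h and 923 and 1366 in KCl in number 3, against 323 to 535 in the others. It had the smallest adjusted p without the block, 0.249, for an interaction of 1.17 ± 0.18, and 0.0101 with it.

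Of the genes with a lower KCl response in number 3, STP4, LEU1 and CSR1 had their 2 highest levels in the number 3 libraries at 0 h. STP4, a zinc finger protein gene, had 186 and 189 CPM at 0 h and 29.6 and 44.6 in KCl in number 3, against 23.8 to 118 in the 8 others, an interaction of -1.84 ± 0.25 (edgeR adjusted p = 0.0101 with the block, 0.505 without). LEU1, the isopropylmalate isomerase gene of leucine synthesis, had 639 and 578 CPM at 0 h and 156 and 131 in KCl, against 123 to 438, an interaction of -1.57 ± 0.31 (adjusted p = 0.0321 and 0.505). CSR1, a phosphatidylinositol transfer protein gene, had 144 and 161 CPM at 0 h and 75.9 and 80.7 in KCl, against 43.2 to 92.4. Its KCl minus 0 h difference was -0.92 and -0.99 in number 3 and 0.29 to 0.53 in numbers 1 and 2, an interaction of -1.38 ± 0.13 (adjusted p = 0.00232 and 0.505). NSR1, the nucleolar protein gene printed above with its PAC motif, had 2637 and 2658 CPM at 0 h and 1137 and 1252 in KCl. The 8 others ran from 1311 to 2673 CPM, and the interaction was -1.24 ± 0.23 (edgeR adjusted p = 0.0305 and 0.505). Its KCl minus 0 h difference was -0.30 and -0.26 in number 1, 0.51 and 0.42 in number 2, and -1.21 and -1.09 in number 3. For STP4 it was -0.99 and -0.83, -0.04 and -0.29, and -2.65 and -2.08. Numbers 1 and 2 therefore differed in these responses too. Of the 52 amino acid genes 8 were called lower in the interaction with the block and 0 higher, against 1.62% and 0.38% of all features. Of 19 tRNA synthetase genes 2 were called lower, and of 48 ribosome biogenesis genes 3.

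Numbers 1 and 2 also differed from each other. The contrast sets their libraries against each other, while the number 3 libraries entered the fit and its estimate of the spread. edgeR called 665 features higher in number 1 (10.5%) and 671 lower (10.6%), and 533 higher and 667 lower when fitted on the 8 libraries numbered 1 and 2 alone. Of 29 iron regulon genes under Aft1 18 were called higher in number 1 and 1 lower, and of the 52 amino acid genes 18 were called lower and 1 higher. FRE2, a ferric reductase gene, was higher in number 1 by 1.65 ± 0.50 (adjusted p = 0.04) and FIT2, a wall protein that retains siderophore iron, by 1.65 ± 0.53 (adjusted p = 0.0476). FIT2 did not differ in every group. In numbers 1 and 2 it had 780 and 125 CPM in crz1 at 0 h and 2230 and 480 in crz1 in KCl. In crz1cnb1 it had 260 and 108 CPM at 0 h, but 1342 and 1347 in KCl. MET8, an enzyme of siroheme synthesis, was higher by 1.43 ± 0.12, and FUS3, the MAP kinase of mating, lower by 1.12 ± 0.10 (fitted difference -1.12), both with an adjusted p of 0.000122. MET8 lay in number 3 at 4.75 to 5.23 CPM, between number 1 (8.47 to 10) and number 2 (2.79 to 4.11). The total of 1336 calls depended on single libraries: it was 607, 618, 544 and 708 without the number 1 library of crz1 at 0 h, crz1 in KCl, crz1cnb1 at 0 h and crz1cnb1 in KCl. It was 845 and 481 without the number 2 library of crz1 in KCl and of crz1cnb1 in KCl.

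Set side by side, with libraries shared between the comparisons, number 3 was called apart from the rest in 2861 features, number 2 in 1044 (16.5%, with 8.19% higher and 8.35% lower) and number 1 in 0 by edgeR. For number 1, 1368 features had an unadjusted p under 0.05 and DESeq2 called 552. With the block these counts were 3498, 2414 and 1393. Without the number 2 library of crz1cnb1 in KCl or of crz1 in KCl the count for number 2 was 310 or 487, and without the number 3 library of crz1cnb1 in KCl or of crz1 in KCl it was 651 or 689. Without the number 2 library of crz1 at 0 h the count for number 1 was 842. The difference from the mean of the other 2 numbers had the same sign in all 4 groups for 68.1% of the 5084 features in number 3, 46.6% in number 2 and 56.3% in number 1. Its SD across features was 0.39, 0.33 and 0.27 on the log2 scale.

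The number 3 difference was related to expression level more than to gene composition. Over 5024 features with a known sequence its Spearman correlation was 0.06 with GC content, -0.02 with gene length and 0.27 with mean CPM, and the last was 0.33 and 0.34 within the 0 h groups and 0.14 and 0.16 within the KCl groups. Split into 5 equal bins of mean CPM, the features of the highest bin had a median difference of 0.24 and those of the 2 lowest bins -0.17 and -0.20. The share called higher was 12.7% in the lowest bin of mean CPM and 43.5% in the highest. In 5 bins of GC content that share was 16.4% in the lowest and 32.9% in the highest, with medians of -0.09 and 0.06. Mean CPM is made from the same libraries, and the abundant features include the glycolytic genes TDH3 and ENO2. By chromosome the median ran from -0.18 (VI, 90 features) to 0.04 (III, 128 features).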

How the data were processed

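Counts for 7126 features in 12 libraries were deposited by the authors, per the file headers. Poly(A) RNA was sequenced, per the labels' protocols. Per the submitters' processing notes, featureCounts, DESeq2 and the build R64 were used, in roles and versions they leave unsaid. No aligner or strand setting is given in the sources used here, nor how multiply matching reads were treated, so overlapping, antisense and near-identical genes are uncertain. The deposited TPM table was not used here.

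Counts were analysed with edgeR 4.0.16 in R 4.3.3 (quasi-likelihood test, TMM scaling, filterByExpr by group, Benjamini-Hochberg adjustment over 6309 features). The main model held strain, treatment and number 3 against 1 and 2. Number 1 against 2 was fitted with the number as 3 levels. Interactions added number 3 by treatment or by strain. Printed CPM are scaled by TMM, and deviations use log2 CPM with a prior count of 2. The model was also run on simulated counts with known changes. Those counts were drawn independently for each library, with no differences between numbers other than the planted ones. That run therefore does not cover libraries that deviate together by number, as these do.

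The members and lists were chosen with earlier results of these data known. Named genes are the 12 highest and 12 lowest differences among standard-named features with a mean of at least 10 CPM whose number 3 library lay above, or below, both others in all 4 groups. Other genes come from 51 gene lists or were chosen after their values were seen. Samples with the same number deviated together across groups. All 18 correlations of their deviations from group means were between 0.309 and 0.827, and the 36 with different numbers between -0.732 and 0.317. The numbers were therefore taken to pair the samples, but only the fits with the replicate block and number 1 against 2 hold that pairing. The other fits leave the differences between pooled numbers in their error. Calls without and with the block were 2861 and 3498 for number 3, and 0 and 126 for the KCl interaction. No 2 libraries of a group agreed within sampling noise (chi-square per degree of freedom 73.4 to 236).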

Additional observations from a re-analysis of the deposited data

Results flagged for a closer look

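With the replicate number as a block in edgeR, the KCl response of 10 named genes differed between number 3 and the others, and these are the values. It was higher by 2.24 on the log2 scale for DDR2, 1.80 for HXT7, 1.45 for AMA1, 1.43 for YTP1 and 1.20 for ALD4. It was lower for STP4 (-1.84), LEU1 (-1.57), DPH2 (-1.43), CSR1 (-1.38) and NSR1 (-1.24). None of the 10 was called without the block (adjusted p = 0.505 for each except YTP1, 0.561). HXT7, a hexose transporter gene, has a near-identical neighbour, HXT6, and its mean was 1.72 CPM, so its value is uncertain. AMA1 had a mean of 1.34 CPM. DPH2 lies beside CNB1, which is deleted in crz1cnb1. Its KCl minus 0 h difference in number 3 was -1.75 in crz1 and -1.63 in crz1cnb1, and the part of the deletion was not tested.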

How the results depend on the processing

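The number 3 calls (2861) stayed within 1.5 times under another scaling, no filter, DESeq2, 1 coefficient per group, the replicate block (3498) and leaving out single libraries (1940 to 3121). Fitted in crz1 alone 0 were called (1842 at an unadjusted p under 0.05), in crz1cnb1 alone 52, at 0 h alone 1889 and in KCl alone 0 (1911 unadjusted), each with 6 libraries. Number 2 against the rest gave 2414 with the replicate block and 310 to 1151 without single libraries. Number 1 against the rest gave 8 with library totals, 552 with DESeq2, 1393 with the replicate block and 0 to 842 without single libraries. Number 1 against 2 gave 481 to 1902 without single libraries. The KCl interaction gave 5 with DESeq2, 126 with the replicate block, and, chosen after seeing the data, 940 against number 1 alone and 1119 against number 2 alone, with 0 in every fit that left out a library. The strain interaction gave 0 throughout. The sign turned for the unfolded protein response median with library totals (-0.14, from 0.15), TSL1 at 0 h alone (-0.41), the general stress median at 0 h alone (-0.07) and the heat shock chaperone median in KCl alone (0.02). The cause was not tested. With 1 library of each number per group, a library's own error and its number cannot be told apart within a group.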
